A study of Mus musculus with 15 samples.

Results

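The TNF superfamily consists of ligands, mostly trimeric membrane or secreted proteins, and of the receptors that bind them. In the count table, 39 of 24084 genes were taken as the family here: those with a symbol starting with Tnfsf or Tnfrsf, together with Cd40, Cd40lg, Fas, Fasl, Cd27, Lta, Ltb and Ltbr. They comprised 15 ligands, 5 receptors with an intracellular death domain, 15 other receptors and 4 receptors known as decoys or as short-tailed. Tnf itself does not match these symbols and is given with the related genes.

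Expression was measured by RNA-seq in macrophages sorted as F4/80+ CD45+ from C57BL/6J mice and taken directly ex vivo, in 15 libraries and 6 groups. The groups were macrophages of sympathetic ganglia (SAM ganglia, n = 3) and of sympathetic nerve fibers (SAM fibers, n = 2), of fat under the skin (sATM, n = 2) and of visceral fat (vATM, n = 2), of spleen (SpM, n = 3), and microglia of the brain (n = 3). SAM is used for ganglia and fibers jointly, and the number after a group name is the replicate number in the title. The labels give no allele or treatment for any group, call the fat macrophages anti-inflammatory, and put in all titles the letters ND, which they do not spell out. They state neither age nor sex. Tissue came from 10 mice. Whether replicate libraries are from separate animals is not stated, so p-values reflect library-to-library spread that could be technical. The enzymes were tissue-specific. Fat, spleen and brain had 30 minutes of collagenase, fibers 30 minutes of hyaluronidase and then 15 minutes of collagenase, and ganglia 10 minutes of collagenase and then 30 minutes of trypsin, so that digestion and tissue cannot be told apart.

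Libraries held 2.55 to 12.52 M corrected counts (M for mega), of which 46.1% to 71.5% fell on genes that collect ribosomal RNA reads. Markers of macrophages were present in all groups, and the lists for microglia, red pulp and resident adipose macrophages were highest in microglia, SpM and vATM. Other cells' markers were present too: neuronal markers summed to 215 to 589 counts per M counts (CPM) in fibers and 80.5 to 119 in ganglia. The eosinophil list summed to 656 to 915 CPM in SpM, nearly all of it Ccr3 (mean 803 CPM), while Siglecf, Epx, Prg2 and Il5ra averaged 2.19, 0.675, 0.185 and 0.359 CPM there. Background DNA, measured on olfactory receptor genes, ranged from 32.9 raw counts per M in vATM 1 to 1233 in SAM fibers 1, and was next highest in Microglia 2 and SAM ganglia 3. The fiber libraries correlated with each other at 0.605, against 0.781 to 0.959 for other pairs within a group.

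Ligands of the family bind as trimers and cluster their receptors. Receptors with a death domain can recruit adaptors that lead to caspase activation, while most others bind TRAF adaptors and activate the kinases that release NF-kappaB. Macrophages use these pathways to sense inflammatory signals, to receive help from T cells through Cd40, and to send costimulatory and survival signals to lymphocytes.

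Of the 39 genes, 27 had enough counts to be tested and 12 did not. The 12 untested genes were those with fewer than 3 counts in some library of every group. Among the other genes, 7 were detected in all 6 groups, where detected means at least 3 counts in every library of the group. These were the TNF receptors Tnfrsf1a and Tnfrsf1b, the lymphotoxin beta receptor Ltbr, Tnfrsf11a, Tnfrsf14, Tnfrsf21 and 1 ligand, Tnfsf12. Detected members numbered 22 in vATM, 20 in sATM, 19 in ganglia, 17 in SpM, 15 in fibers and 10 in microglia. Detection depends on depth, and 3 counts corresponded to 0.249 to 0.897 CPM. It also depends on the number of libraries that must pass, which was 2 or 3. Counted by single library, 20, 16 and 21 members had at least 3 counts in Microglia 1, 2 and 3. In the libraries of the other groups 19 to 25 members did. Microglia had only 1 detected ligand, Tnfsf12, against 3 in fibers, 6 in ganglia, sATM and vATM, and 7 in SpM. The ligands' summed level was 25.4, 26.4 and 26.1 CPM in the microglia libraries, and no library of another group was below 51.7 CPM. In bulk libraries such as these, fewer cells of a type and less RNA per cell cannot be told apart.

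**Figure D1:**
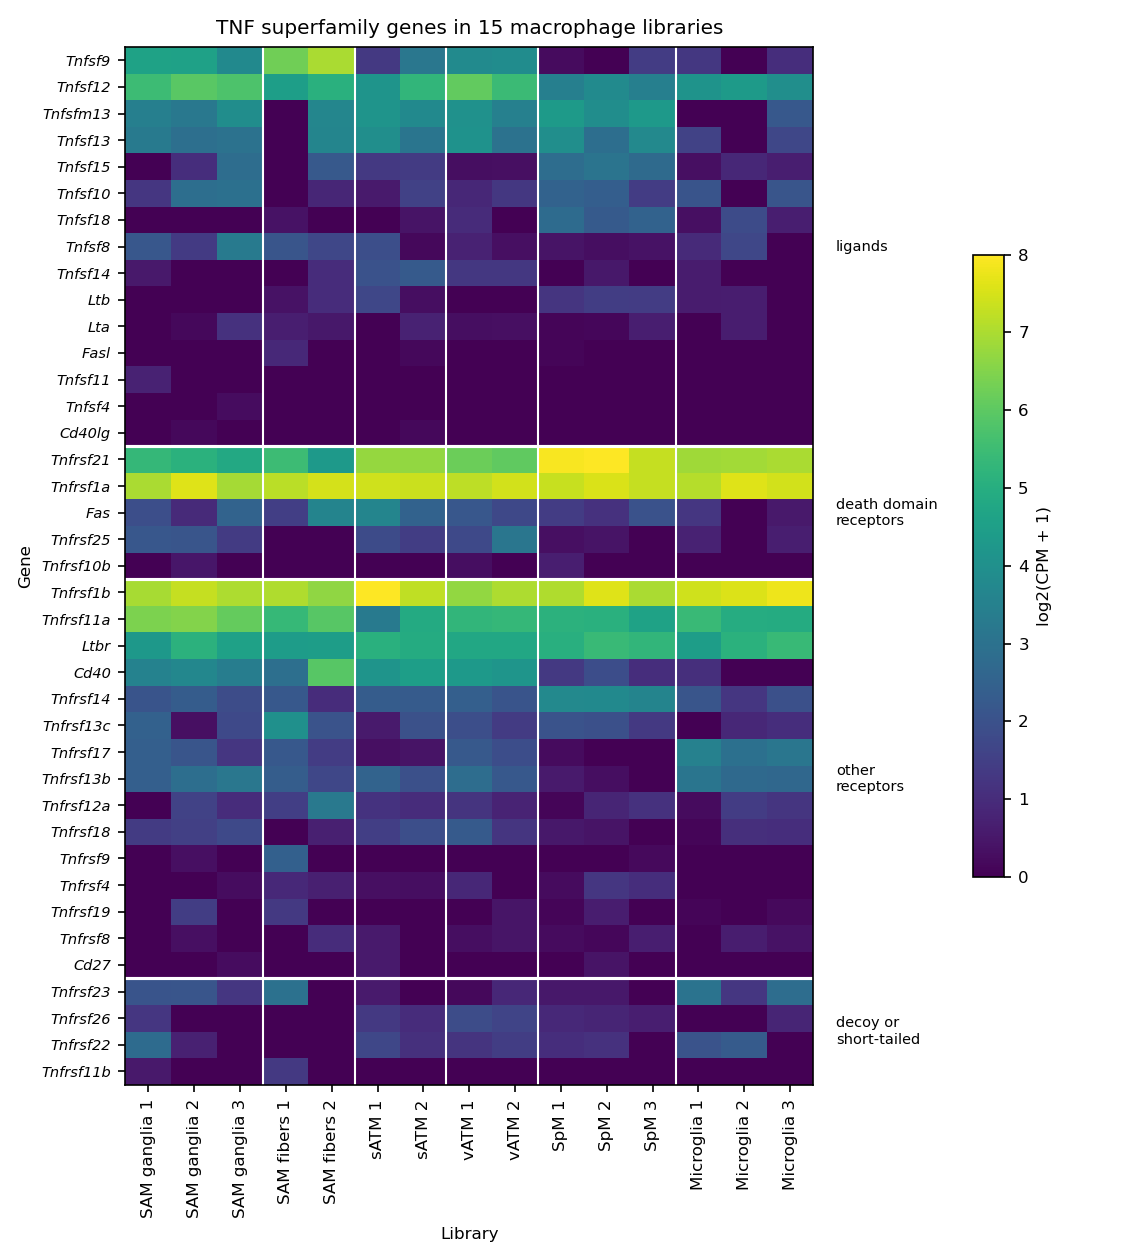
Level of all 39 family members (rows, by role) in the 15 libraries (columns, by tissue), as log2(CPM + 1) on a color scale that ends at 8. Tnfrsf1a and Tnfrsf1b are high in every library, while Tnfsf9 is high in the fiber libraries and low in spleen and brain.

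A difference among the 6 groups passed the test (edgeR quasi-likelihood, adjusted p below 0.05) for 7 of the 27 tested members, or 25.9%, against 22.3% of all genes tested. They were 2 of 10 tested ligands (Tnfsf9 and Tnfsf12), 1 of 4 tested death domain receptors (Tnfrsf21), 4 of 10 tested other receptors (Cd40, Tnfrsf11a, Tnfrsf13b and Tnfrsf17) and 0 of 3 tested decoys. The call of Tnfrsf13b (edgeR adjusted p = 0.0241) was lost in 8 of 25 alternatives, among them those without vATM 1, vATM 2, SpM 2, SpM 3, Microglia 1 or Microglia 3 (adjusted p = 0.0528 to 0.123). The share of members is close to that of all genes. Members that passed the filter did so because some group had counts, so these numbers describe the family and are no support for a difference.

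Comparisons between tissues then asked where each member stood apart. To be called higher or lower, a member needed a log2 difference of at least 1 in size and an adjusted p below 0.05, and every group counted equally in a mean over groups. The comparisons share libraries, and so their results are not independent.

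Between SAM and the other 4 groups, 4 of 27 tested members were called (9.2% of all genes were), 3 of them higher (5.74% of all genes) and 1 lower (3.46%). The higher ones were the ligand Tnfsf9 and the receptors Cd40 and Tnfrsf11a, and the lower one was Tnfrsf21. The median log2 difference of the 27 tested members was -0.06, against 0.02 for all genes, with 12 members positive and 15 negative. It includes 5 members with ganglia or fibers listed at 0 (Ltb, Tnfrsf22, Tnfrsf25, Tnfrsf26 and Tnfsf18). Their differences were all negative and are uncertain, so the median does not show whether the family was shifted in SAM.

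Tnfsf9, also called CD137 ligand, is a costimulatory ligand that macrophages and dendritic cells display to activated T cells. Its level was 76.2 and 126 CPM in the fiber libraries and 23.3, 23.0 and 12.8 CPM in the ganglia libraries. It was 1.53 and 7.93 CPM in sATM, 13.3 and 13.8 CPM in vATM, 0.166, 0 and 1.67 CPM in SpM, and 1.47, 0 and 1.06 CPM in microglia. Both fiber libraries were above all other libraries, and the ganglia libraries overlapped those of vATM. Spleen and brain were lowest by group mean, but sATM 1 (1.53 CPM) was below SpM 3 (1.67 CPM). The SAM groups were higher than the others by 4.18 ± 0.50 (log2, SE) with an adjusted p of 3.6e-05 (edgeR), and this call held under all 25 alternatives. Tnfsf9 was lower in SpM than in the other 5 groups by a log2 difference of -4.29 ± 0.83 (edgeR adjusted p = 0.00164), and lower in microglia by -3.23 ± 0.77 (adjusted p = 0.00741). The microglia call was lost without the low-count filter (adjusted p = 0.0708) and on raw counts (adjusted p = 0.0515). Per length, Tnfsf9 reached 51.2 and 114 RPKM in the fiber libraries, the same order as the broadly present receptor Tnfrsf1a in them, at 54.5 and 91.8 RPKM.

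Between fibers and sATM, both taken from subcutaneous fat, 2 of 27 tested members were called (4.96% of all genes), 1 higher (1.87%) and 1 lower (3.09%). Tnfsf9 was higher in fibers by 4.34 ± 0.98 (log2; edgeR adjusted p = 0.0191). This call was lost in 7 of 25 alternatives, among them those without SAM fibers 1 (adjusted p = 0.0582), sATM 1 (0.214), sATM 2 (0.0747), vATM 1 (0.0806) or vATM 2 (0.081). Tnfsf9 was lower in ganglia than in fibers by a log2 difference of -2.35 ± 0.77, which did not pass (edgeR adjusted p = 0.0993), although the libraries did not overlap. The receptor of Tnfsf9, Tnfrsf9, had 15.3 corrected counts in SAM fibers 1 and fewer than 3 in every other library. Neuronal markers, fibroblast markers (167 to 246 CPM) and neutrophil markers (125 to 135 CPM, mostly S100a8 and S100a9) were also highest in fibers, and their part in the Tnfsf9 level was not tested.

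Cd40 is the receptor through which T cells carrying Cd40lg activate macrophages. It was 6.58 and 60.2 CPM in the fiber libraries, 10.6, 12 and 9.43 CPM in ganglia, 16.8 and 21.2 CPM in sATM and 18.9 and 17.2 CPM in vATM. It was 1.5, 2.73 and 1.07 CPM in SpM and 1.12, 0 and 0 CPM in microglia. The fiber libraries stood on either side of the fat and ganglia libraries, and those of spleen and brain were below all others. Cd40 was lower in microglia than in the other 5 groups by -4.50 ± 0.86 (log2; edgeR adjusted p = 0.00127), a call lost only on raw counts. In the fat groups it was higher than in the other 4 groups by 2.12 ± 0.50 (edgeR adjusted p = 0.0107), and the call was lost without sATM 2 (adjusted p = 0.0701) or vATM 2 (0.0513). The call in SAM, 2.16 ± 0.50 (edgeR adjusted p = 0.00961), was lost without SAM fibers 2 (0.95, adjusted p = 0.155). In SpM Cd40 was lower by -2.35 ± 0.71 (edgeR adjusted p = 0.0347), and this call was lost in 12 of 25 alternatives. Among them were those without SAM ganglia 2, Microglia 1 or any 1 library of sATM, vATM or SpM. Replicate number in the fit also ended the call (edgeR adjusted p = 0.0605).

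Tnfrsf11a, or RANK, is the receptor of the osteoclast factor Tnfsf11 and is present on macrophage progenitors and mature macrophages. It was 84.5, 90.7 and 68.0 CPM in ganglia and 40.4 and 59.1 CPM in fibers. It was 8.66 and 28.4 CPM in sATM, 37.1 and 39.0 CPM in vATM, 34.3, 32.8 and 23.3 CPM in SpM and 42.1, 30.0 and 29.0 CPM in microglia. The ganglia libraries were above all others, the lower fiber library overlapped microglia, and the lowest library was sATM 1. The SAM groups were higher by 1.12 ± 0.24 (log2; edgeR adjusted p = 0.00546). The difference was 0.93 without SAM fibers 2, 0.87 without sATM 1 and 1.0 without vATM 1 (adjusted p = 0.0506), each of which ended the call, and it was -0.20 on raw counts (adjusted p = 0.811). The ligand of Tnfrsf11a, Tnfsf11, was not detected in any group.

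Tnfrsf21, also known as death receptor 6, has a death domain. It was 244, 251 and 155 CPM in SpM, 114, 118 and 125 CPM in microglia, 105 and 103 CPM in sATM and 72.4 and 65.7 CPM in vATM. It was 39.2, 33.6 and 27.7 CPM in ganglia and 44.2 and 19.2 CPM in fibers. The libraries of these groups did not overlap in this order, except that those of ganglia and fibers did. The SAM groups were lower by a log2 difference of -1.84 ± 0.22 (edgeR adjusted p = 3.6e-05) and fibers were lower than sATM by -1.72 ± 0.37 (adjusted p = 0.0140). Both calls were lost on raw counts (adjusted p = 0.31 and 0.308), and the second also with voom (adjusted p = 0.132).

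**Figure D2:**
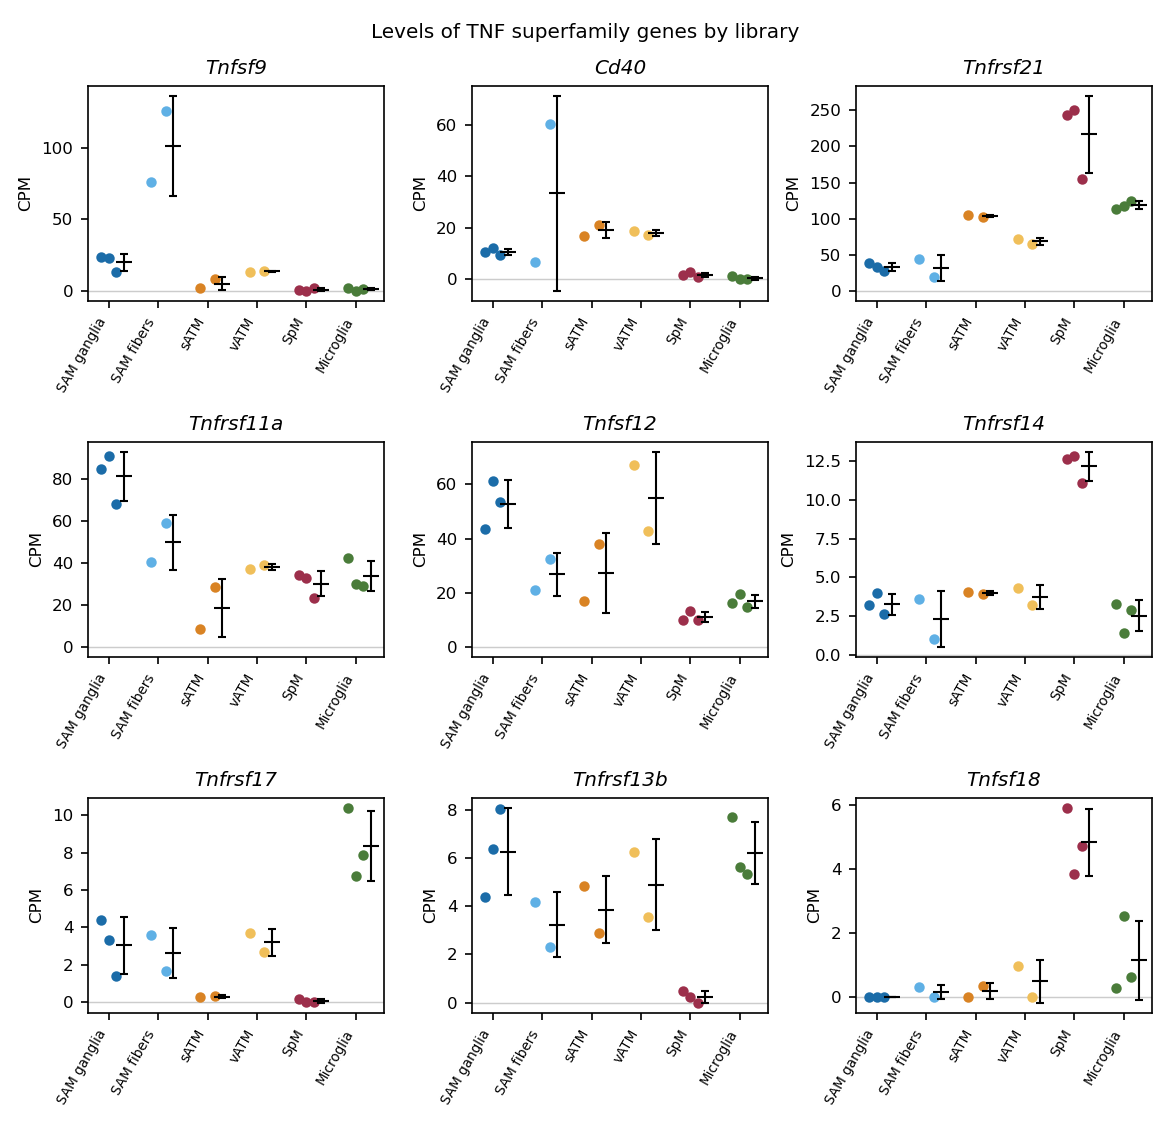
Level of 9 called members, in CPM, by library (points) with the mean and SD of each group (bars). Tnfsf9 lies at 76.2 and 126 CPM in fibers and Tnfrsf21 at 155 to 251 CPM in spleen, while the fiber libraries of Cd40 lie far apart at 6.58 and 60.2 CPM.

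In SpM against the other 5 groups, 8 of 27 tested members were called (12.5% of all genes were), 3 of them higher (6.73% of all genes) and 5 lower (5.72%). The higher ones were the receptors Tnfrsf14 and Tnfrsf21 and the ligand Tnfsf18. Tnfsf9, Cd40, Tnfsf12, Tnfrsf13b and Tnfrsf17 were lower. Tnfrsf21 was higher in SpM by 1.81 ± 0.21 (log2; edgeR adjusted p = 9e-06), a call that held under all 25 alternatives.

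Tnfrsf14, or HVEM, binds the ligand Tnfsf14 and the inhibitory receptor Btla. It was 12.6, 12.8 and 11.1 CPM in SpM, 3.23, 3.98 and 2.61 CPM in ganglia and 3.59 and 1.04 CPM in fibers. It was 4.07 and 3.91 CPM in sATM, 4.31 and 3.20 CPM in vATM, and 3.29, 1.40 and 2.89 CPM in microglia. The 3 spleen libraries were above the other 12, by 1.96 ± 0.44 (log2) against the mean of the other groups (edgeR adjusted p = 0.00508), a call that held under all 25 alternatives. For Tnfrsf14 the test for any difference among the 6 groups did not pass (edgeR adjusted p = 0.0515). B cell markers also summed highest in SpM, at 90.0 to 121 CPM against at most 52.3 CPM elsewhere, with Cd79b at a mean of 75.9 CPM in SpM. T cell markers summed to 18.7 to 30.1 CPM in SpM, mostly Cd4 (mean 18 CPM), and to at most 28.4 CPM elsewhere. Ccr3 averaged 803 CPM in SpM and at most 4.45 CPM in the other groups. The part of these markers in the Tnfrsf14 level was not tested.

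Tnfsf18, the ligand of the glucocorticoid-induced receptor Tnfrsf18, was chosen for fuller values after they were seen, like Tnfrsf13b, Tnfrsf17 and Tnfrsf25, since their group means were under 10 CPM. It was 5.90, 3.83 and 4.72 CPM in SpM, from 71.1, 34.9 and 31.1 counts. It was 0.260, 2.53 and 0.608 CPM in microglia, 0.299 and 0 CPM in fibers, 0 and 0.345 CPM in sATM and 0.958 and 0 CPM in vATM, and was listed at 0 in the 3 ganglia libraries. The spleen libraries did not overlap any other (edgeR adjusted p = 0.0112), and no fold change is given because ganglia were listed at 0. The test for any difference did not pass for Tnfsf18 (edgeR adjusted p = 0.0818), and the fold behind its call in SpM includes ganglia and is uncertain. The call was lost on raw counts (adjusted p = 0.362) and without SpM 1 (adjusted p = 0.0509). Raw counts of Tnfsf18 were highest in SAM fibers 1, at 213, where 1.2 remained after correction.

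The bases upstream of the starts of the 3 genes higher in SpM are shown for their sequence context, since the PU.1 family of factors, which drives macrophage and B cell programs, binds sites around GAGGAA. Sequences are from RefSeq (GRCm38.p6), 5′ to 3′ on the gene's strand, and cover the 250 bases before the start. Capitals mark GAGGAA or its reverse complement TTCCTC. The promoter of Tnfrsf14 (chr4:154928078-154928327, minus strand) has no match. That of Tnfrsf21 (chr17:43016305-43016554, plus strand) has 1, at 145 bases upstream. That of Tnfsf18 (chr1:161494407-161494656, plus strand) has 2, at 227 and 215 bases upstream.
Tnfrsf14: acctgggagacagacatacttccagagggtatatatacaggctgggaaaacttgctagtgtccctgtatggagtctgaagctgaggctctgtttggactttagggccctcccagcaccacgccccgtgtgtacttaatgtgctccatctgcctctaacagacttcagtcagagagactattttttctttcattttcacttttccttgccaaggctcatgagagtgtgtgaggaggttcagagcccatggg
Tnfrsf21: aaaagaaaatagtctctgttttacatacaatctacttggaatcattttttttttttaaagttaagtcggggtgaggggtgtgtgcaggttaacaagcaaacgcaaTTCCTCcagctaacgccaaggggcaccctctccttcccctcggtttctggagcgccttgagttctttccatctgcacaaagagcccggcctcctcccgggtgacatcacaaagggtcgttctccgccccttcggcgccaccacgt
Tnfsf18: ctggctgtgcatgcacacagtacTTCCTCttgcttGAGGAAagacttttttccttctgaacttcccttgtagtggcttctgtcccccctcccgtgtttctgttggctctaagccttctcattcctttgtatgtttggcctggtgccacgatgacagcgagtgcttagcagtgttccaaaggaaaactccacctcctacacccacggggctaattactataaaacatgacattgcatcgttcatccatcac
The motif GAGGAA, searched on both strands, was in 23.3% of 32851 promoters in the RefSeq table and in 10 of the 30 family members with an entry there (33.3%). The AP-1 motif TGANTCA was in 4 of the 30 members, against 6.75% of all promoters, and TGACGTCA in 0 of 30, against 1.55%. The kappaB consensus was in 2 of 30, Ltb and Tnfrsf8, against 7.25%. A match says only that these letters are in the window. Tnfsf9 and Cd40 were not among the 30.

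Tnfsf12, or TWEAK, is a ligand of Tnfrsf12a and the 1 ligand detected in all 6 groups. It was 43.6, 61.1 and 53.4 CPM in ganglia, 21.2 and 32.5 CPM in fibers, 16.8 and 37.8 CPM in sATM and 67.0 and 42.9 CPM in vATM. It was 9.98, 13.1 and 10.0 CPM in SpM and 16.2, 19.6 and 14.6 CPM in microglia. The 3 spleen libraries were below all others, by a log2 difference of -1.55 ± 0.29 (edgeR adjusted p = 0.00132), a call lost only on raw counts, where the difference was 0.11 (adjusted p = 1). On chromosome 11 Tnfsf12, the adjacent ligand Tnfsf13 and the read-through gene Tnfsfm13 overlap or adjoin (chr11:69682577-69696098, mm10), so reads may be split between them and their levels are uncertain. Tnfsf13, or APRIL, had group means of 1.42 CPM in microglia to 11.5 CPM in vATM (any difference, edgeR adjusted p = 0.312). Tnfsfm13 had group means of 1.22 CPM in microglia to 17.7 CPM in SpM (adjusted p = 0.233).

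Tnfrsf13b (TACI) and Tnfrsf17 (BCMA) are receptors of APRIL best known from B cells and plasma cells. Tnfrsf17 was 10.4, 6.74 and 7.90 CPM in microglia and 0.166, 0 and 0 CPM in SpM. It was 4.39, 3.32 and 1.40 CPM in ganglia, 3.59 and 1.67 CPM in fibers, 0.255 and 0.345 CPM in sATM, and 3.71 and 2.70 CPM in vATM. The 3 microglia libraries were above, and the 3 spleen libraries below, those of all other groups. In microglia against the other 5 groups, 3 of 27 tested members were called (13.7% of all genes were). Tnfrsf17 was the 1 higher member (7.21% of all genes), by 3.17 ± 0.63 (log2; edgeR adjusted p = 0.00176). In SpM it was lower by a log2 difference of -4.81 ± 1.05 (edgeR adjusted p = 0.00426). Both calls were lost only on raw counts, where the differences were 1.86 (edgeR adjusted p = 0.216) and -1.22 (adjusted p = 0.832). Tnfsf9 and Cd40 were the 2 members lower in microglia (6.49% of all genes). The B cell genes Cd79a and Blk were at 0 in the 3 microglia libraries, and the B cell list summed to 24.2 to 51.9 CPM there, mostly Cd79b (mean 31.6 CPM). The plasma cell list of 5 genes summed to 149 to 190 CPM in microglia, nearly all of it Xbp1 (mean 145 CPM) and Prdm1 (17.9 CPM), while Jchain, Mzb1 and Sdc1 averaged 0.0865, 0.0288 and 0.0288 CPM.

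Tnfrsf13b was 0.499, 0.219 and 0 CPM in SpM, 7.70, 5.61 and 5.32 CPM in microglia and 4.39, 6.38 and 8.02 CPM in ganglia. It was 4.18 and 2.29 CPM in fibers, 4.84 and 2.87 CPM in sATM, and 6.23 and 3.56 CPM in vATM. The spleen libraries were below the other 12, by a log2 difference of -4.09 ± 0.84 (edgeR adjusted p = 0.00247), a call lost only on raw counts. The B cell list summed to a mean of 107 CPM in SpM, the highest of the groups. The plasma cell list summed to 157 to 237 CPM in SpM, overlapping sATM (184 to 194 CPM) and vATM (165 to 200 CPM). Of its genes Jchain (22.3 CPM) and Mzb1 (2.58 CPM) were highest in SpM, and Xbp1, Prdm1 and Sdc1 were not. The part of these cells in the levels of Tnfrsf13b and Tnfrsf17 was not tested.

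In the fat groups, 2 of 27 tested members were called against the other 4 groups (8.53% of all genes were), both of them higher (5.65%) and 0 lower (2.88%). They were Cd40 and the death domain receptor Tnfrsf25, which binds Tnfsf15. Tnfrsf25 was 2.55 and 1.72 CPM in sATM and 2.39 and 7.87 CPM in vATM. It was 3.46, 3.32 and 1.60 CPM in ganglia, 0.249, 0.328 and 0 CPM in SpM, 0.692, 0 and 0.608 CPM in microglia, and was listed at 0 in both fiber libraries. The fat libraries overlapped those of ganglia and were above spleen and microglia. Its call in fat (edgeR adjusted p = 0.0228) rests on a fold that includes fibers listed at 0, so the fold is uncertain and is not given. The test for any difference did not pass for Tnfrsf25 (edgeR adjusted p = 0.0577). The call in fat was lost in 6 of 24 alternatives. They included those without sATM 1, sATM 2 or vATM 2, and that with replicate number in the fit (edgeR adjusted p = 0.0639).

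**Figure D3:**
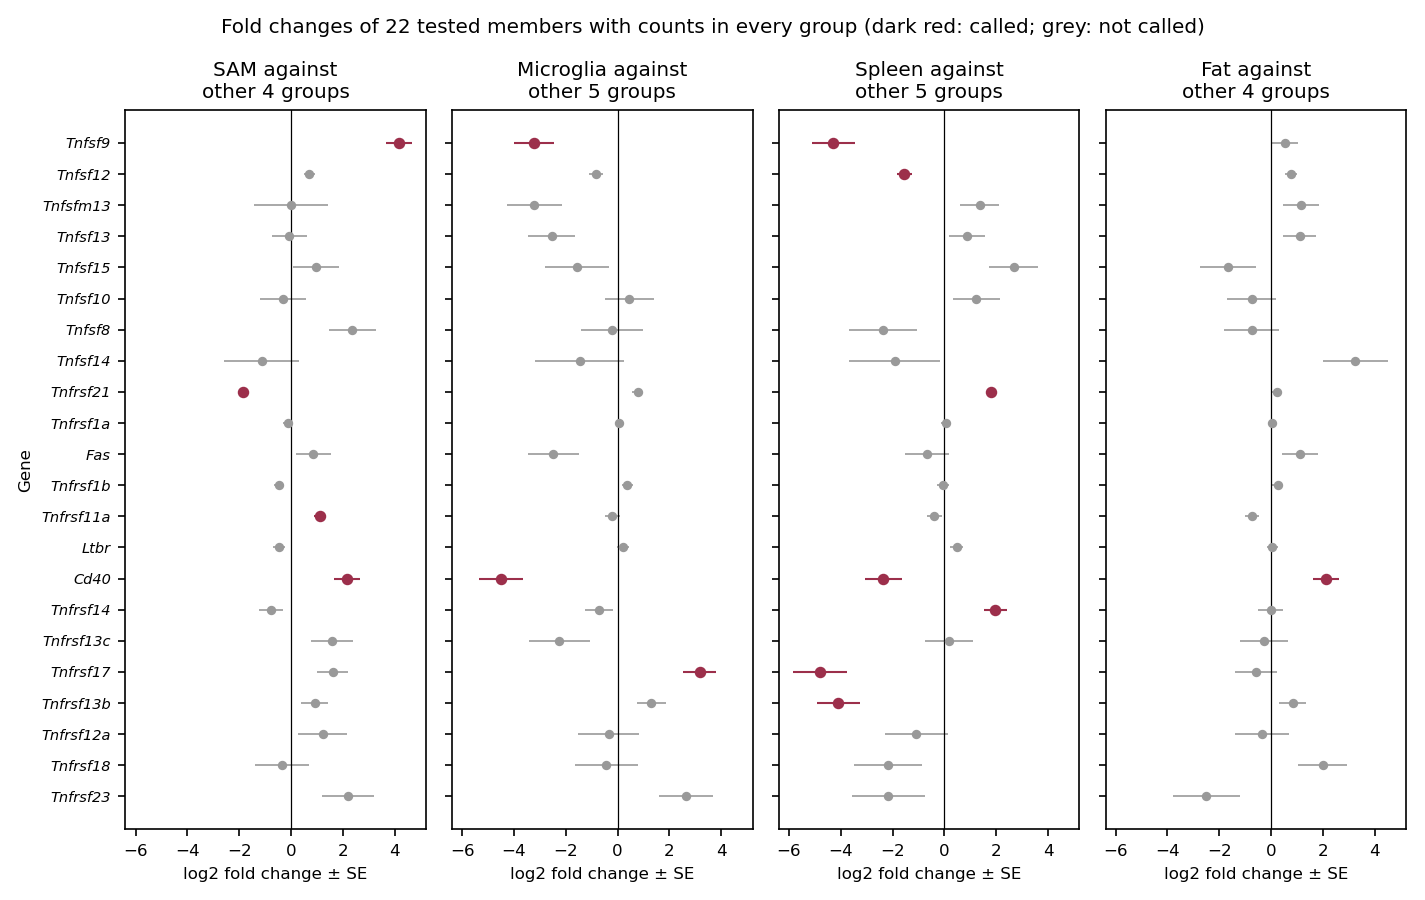
Log2 differences with SE of the tested members with counts in every group, for SAM, microglia, spleen and fat against the remaining groups (dark red called, grey not called). Tnfsf9 lies at 4.18 in SAM, Tnfrsf21 at 1.81 in spleen and Tnfrsf17 at 3.17 in microglia.

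Of the receptors detected in every group, Tnfrsf1a, Tnfrsf1b and Ltbr were called in no comparison. Tnfrsf1a, the TNF receptor with a death domain, had group means of 146 to 168 CPM, a ratio of 1.16 between the highest and lowest (any difference, edgeR adjusted p = 0.973). Single libraries ranged from 120 (SAM ganglia 3) to 195 CPM (Microglia 2), and the groups overlapped. Per length it had group means of 59.5 to 95.9 RPKM. Tnfrsf1b, the TNF receptor without a death domain, had group means of 116 to 262 CPM (adjusted p = 0.0953), and sATM 1 stood at 373 CPM while the other sATM library was at 151 CPM. Ltbr, the receptor of the lymphotoxins and Tnfsf14, had group means of 20.6 to 37.0 CPM (adjusted p = 0.442). A p that misses the threshold does not show that these receptors were equal in the groups.

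**Figure D4:**
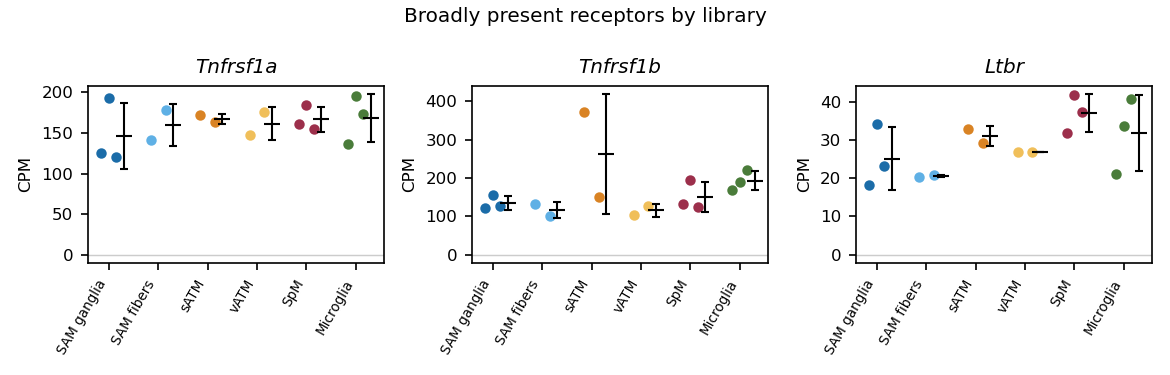
Level of Tnfrsf1a, Tnfrsf1b and Ltbr, in CPM, by library (points) with the mean and SD of each group (bars). Tnfrsf1a spans 120 to 195 CPM with overlapping groups, and in Tnfrsf1b the library sATM 1 stands at 373 CPM.

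No member was called between ganglia and fibers (4.19% of all genes were, 2.92% higher and 1.28% lower), where 5 had an unadjusted p below 0.05. DESeq2 called 2 members there, and 1461 of 15289 genes. No member was called between sATM and vATM (0.0392% of all genes, 0.0196% higher and 0.0196% lower), where 5 had an unadjusted p below 0.05. DESeq2 called 0 members there, and 119 of 15289 genes. No share of all genes is given for the unadjusted p, so it sets no member apart.

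The other 12 tested members were called in no comparison and had group means below 10 CPM. Those named below are examples that no rule set in advance picked. Among the ligands, Tnfsf15 was 6.24, 7.44 and 5.78 CPM in SpM, and 1 ganglia library reached 6.22 CPM. Its SpM difference did not pass (2.67 ± 0.93; edgeR adjusted p = 0.0709). Tnfsf14 was 3.06 and 3.79 CPM in sATM and 1.44 and 1.47 CPM in vATM, and at most 1.04 CPM in every other library, and its difference in fat did not pass (3.25 ± 1.26; edgeR adjusted p = 0.125). Fas, the death domain receptor of Fasl, was 11.5 and 4.71 CPM in sATM and 11.2 CPM in SAM fibers 2, but 1.79 CPM in SAM fibers 1. The decoy receptor Tnfrsf23 was 7.27, 1.40 and 6.23 CPM in microglia and 6.87 and 0 CPM in fibers. It was also detected in ganglia, at a mean of 2.65 CPM.

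Ligands and receptors were then set side by side for 16 known pairs. Both partners were detected for 5 pairs in sATM and 5 in vATM, 2 in ganglia, 1 in fibers, 1 in SpM and 0 in microglia. In fibers the pair was Tnfsf12 with Tnfrsf12a, at 15.9 and 5.62 RPKM. In SpM it was Ltb with Ltbr, at 1.61 and 19.6 RPKM, while Lta, the other lymphotoxin gene, was not detected in any group. In fat the pairs of Tnfsf14 with Ltbr and with Tnfrsf14 were detected in both depots. Every library of a group must pass to count as detected, so groups with more or shallower libraries pass less easily. Tnfrsf12a was thus detected in sATM and vATM at means of 1 and 0.767 RPKM. It was not detected in microglia at 1.14 RPKM or in ganglia at 0.966 RPKM. The pair counts therefore do not rank the tissues. They describe transcripts of 1 sorted population and say nothing of which cells the partners meet.

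The 12 untested members were the ligands Cd40lg, Fasl, Lta, Tnfsf4 and Tnfsf11, and the receptors Cd27, Tnfrsf4, Tnfrsf8, Tnfrsf9, Tnfrsf10b, Tnfrsf11b and Tnfrsf19. Several are mainly known from T cells. Their raw gene-body counts were larger than their corrected counts, since the raw table includes introns and background DNA. Tnfrsf19 had 5195 raw counts over all libraries and 29.2 corrected (0.561%), Tnfsf4 had 1520 and 1.2 (0.0782%), and Lta had 132 and 29.2 (22.1%). Tnfrsf1a kept 77.4%.

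**Figure D5:**
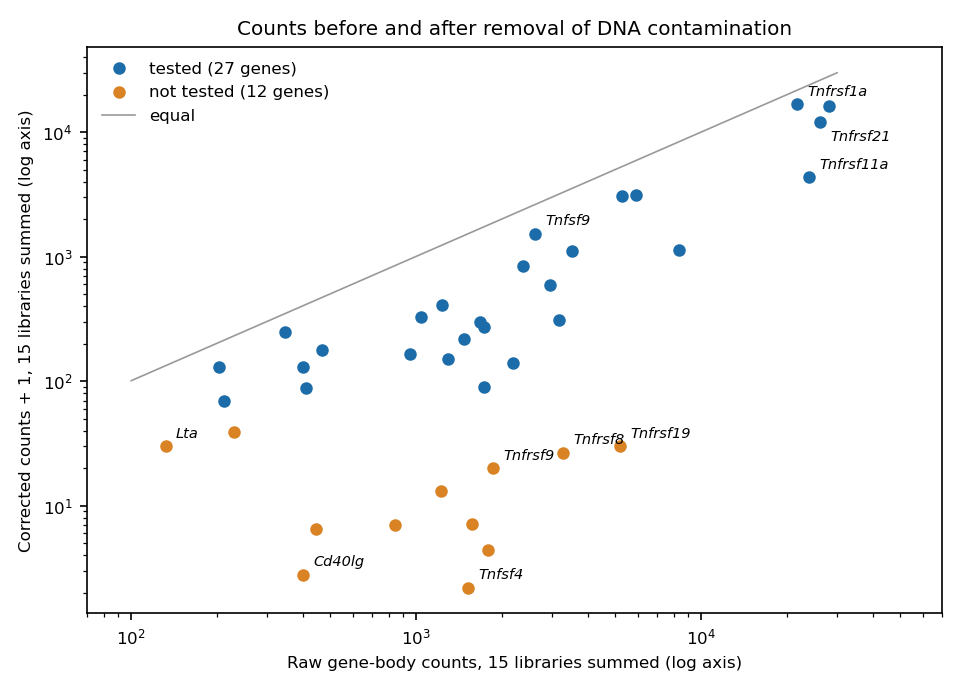
Corrected counts plus 1 against raw gene-body counts of each family member (points; blue tested, orange not tested), summed over the 15 libraries, on log axes, with a line where both are equal. Tnfrsf1a keeps 77.4% of its raw counts, while Tnfrsf19 (5195 raw) keeps 0.561%.

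Related genes gave the context of these levels. Of 7 other genes of the TNF family, such as Tnf, 4 were tested and 2 (Tnf and the receptor Relt) differed among groups, against 22.3% of all genes. Tnf, the founding ligand and main ligand of Tnfrsf1a and Tnfrsf1b, averaged 254 ± 172 CPM in fibers (n = 2), 61.4 ± 5.71 in ganglia (n = 3), 23.1 ± 18.7 in sATM (n = 2), 64.6 ± 2.67 in vATM (n = 2), 5.11 ± 1.33 in SpM (n = 3) and 3.17 ± 1.11 in microglia (n = 3). It was higher in SAM by 3.31 ± 0.29 (log2; edgeR adjusted p = 1.24e-06).

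Of 40 adaptors and signal proteins that act below the receptors, 39 were tested and 12 differed among groups, against 22.3% of all genes. Between SAM and the other groups 6 were higher (5.74% of all genes) and 2 lower (3.46%), and in microglia 1 was higher (7.21%) and 7 were lower (6.49%). The 1 gene higher in microglia, Ikbkg, was listed at 0 in fibers, sATM and vATM. Its calls in microglia and among the groups, where it is 1 of the 12, are therefore uncertain. In SpM 4 were higher (6.73%) and 2 lower (5.72%), and in fat 1 was higher (5.65%) and 0 lower (2.88%). In fibers against sATM 4 were higher (1.87%) and 2 lower (3.09%), and in ganglia against fibers 2 were higher (2.92%) and 6 lower (1.28%). Between sATM and vATM 0 were called (0.0392%). The median log2 difference of the 39 was -0.21 in SAM against 0.02 for all genes. The higher genes included Tnfaip3 (2.91 ± 0.27; edgeR adjusted p = 2.06e-06), an inhibitor of NF-kappaB signalling that NF-kappaB itself induces, and Nfkbia (2.14 ± 0.22; adjusted p = 6.86e-06), which encodes another such inhibitor. The Tnfaip3 mean was by far highest in fibers, at 898 ± 651 CPM (n = 2). Ganglia followed at 103 ± 41.8 (n = 3), close to vATM at 83.2 ± 12.9 and sATM at 58.7 ± 14.9 (each n = 2). SpM had 26.2 ± 10.3 and microglia 20.6 ± 3.83 (each n = 3). For Nfkbia, vATM (197 ± 78.2 CPM) stood above ganglia (176 ± 52.5), and fibers were at 683 ± 345. Both genes were lower in ganglia than in fibers (-3.13 ± 0.45 and -1.95 ± 0.37; edgeR adjusted p = 0.00142 and 0.00664). Ganglia alone against fat was not tested. The kinase gene Ripk3, which acts in necroptosis, was instead lower in SAM (-1.29 ± 0.38; edgeR adjusted p = 0.0378) and higher in SpM (2.58 ± 0.35; adjusted p = 6.05e-05), at 44.6 ± 2.04 CPM in SpM (n = 3). Ripk3 was also lower in microglia (-2.37 ± 0.49; edgeR adjusted p = 0.00256), at 2.41 ± 1.85 CPM (n = 3), and higher in fat (1.16 ± 0.35; adjusted p = 0.0432).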

How the data were processed

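Tables of the whole series were used. The main one, of 24084 genes, gives expected counts after the authors' removal of DNA contamination, as deposited. The others hold raw counts over gene bodies and RPKM values, as the authors deposited them. The submitters' processing notes name STAR, HOMER and mm10. Versions, settings and strand use: not given in the sources used here.

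After rounding, the 15 libraries were fitted jointly in edgeR 4.0.16 (R 4.3.3). Genes were kept by filterByExpr (minimum count 10), which left 15289, scaled by TMM and fitted with 1 mean per group by quasi-likelihood (common biological coefficient of variation 0.680). P-values were adjusted by Benjamini-Hochberg over the 15289 genes. Levels are CPM after TMM scaling, as mean ± SD, and fold changes are log2 ± SE. The SE was derived from the edgeR test, as the size of the log2 difference over the square root of its F statistic. Because a corrected 0 may be a failed estimate, no fold is given against a group listed at 0. The floor of 3 counts covers counting error only.

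The members and lists were chosen with earlier results of these data known. Members with a group mean of at least 10 CPM and a call in any comparison were given in full, others by means or counts. Alternatives, 25 in number, included DESeq2 1.42.0, voom (limma 3.58.1), RPKM with a pseudocount of 0.1 or 1, raw counts, other filters and leaving out each library. The scripts were tested on simulated data.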

Additional observations from a re-analysis of the deposited data

Results flagged for a closer look

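Tnfsf13b, the ligand BAFF, which supports B cell survival, is no row of the corrected count table and so was not among the members, but it stands in the RPKM and raw tables. Its signal in the RPKM table, which the comparisons do not use as their main measure, drew attention. It averaged 14.8 ± 6.03 RPKM in SAM ganglia (SD, n = 3), 4.55 ± 1.21 in microglia (n = 3), 3.12 ± 1.94 in sATM (n = 2), 2.12 ± 0.277 in vATM (n = 2), 0.844 ± 1.19 in SAM fibers (n = 2) and 0.135 ± 0.118 in SpM (n = 3). The difference was not tested.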

How the results depend on the processing

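Counts of called members depended on the method, and so did those over all genes. For any difference, 3404 of 15289 genes were called in the main fit, 5292 with DESeq2, 4828 with voom and 596 of 21705 on raw counts. For microglia these counts were 2096, 2470, 3146 and 322, and for fibers against sATM 759, 1823, 109 and 0. A change in a member count thus need not be particular to the family. For members, the main counts were 7 for any difference, 4 for SAM, 3 for microglia, 8 for spleen, 2 for fat, 2 for fibers against sATM and 0 for ganglia against fibers and for sATM against vATM. DESeq2 gave 11 for any difference, 7 for microglia, 5 for fibers against sATM and 2 for ganglia against fibers. Voom gave 16, 8 for microglia, 4 for fat, 1 for fibers against sATM and 1 for ganglia against fibers. With RPKM and a pseudocount of 0.1 there were 12, 7 for microglia, 4 for fat and 1 for ganglia against fibers. With a pseudocount of 1 there were 13, 8 for microglia, 2 for SAM, 1 for fat, 4 for fibers against sATM and 1 for ganglia against fibers. A minimum count of 30 gave 1 for fat. Raw counts gave 1 for any difference, 1 for SAM, 0 for microglia, 3 for spleen, 0 for fat and 0 for fibers against sATM. Without the 3 libraries with most DNA background (SAM fibers 1, Microglia 2 and SAM ganglia 3), an alternative chosen after seeing the data, there were 14 for any difference, 7 for microglia and 1 for ganglia against fibers.

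Leaving out each library in turn gave 6 to 10 for any difference, 3 to 5 for SAM, 3 to 7 for microglia, 6 to 11 for spleen, 0 to 4 for fat, 1 to 4 for fibers against sATM, 0 to 1 for ganglia against fibers and 0 to 0 for sATM against vATM. Microglia reached 7 without SAM fibers 1. Fat was 0 without vATM 2, 1 without sATM 2 and 4 without SAM fibers 2. Fibers against sATM was 4 without SAM fibers 2 and 1 without SAM fibers 1, sATM 1, vATM 1 or vATM 2. A group left with 1 library was assumed to vary like the others.

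Replicate numbers paired the samples at most in part: 16 of 33 same-numbered pairs had deviations correlated above 0.1 (median 0.0951). The pairs of first replicates outside fibers all correlated above 0.1 (0.18 to 0.639), and in those groups the first replicate had the least DNA background. With the replicate block, fat had 1 called member, microglia 4 and spleen 7. The block ended the calls of Tnfrsf25 in fat (adjusted p = 0.0639) and Cd40 in spleen (adjusted p = 0.0605).

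Of 649 values for single members, 587 kept their direction and call, 60 lost the call and 2 reversed, both on raw counts (Tnfrsf11a in SAM, -0.20, and Tnfsf12 in spleen, 0.11). RLE scaling moved the median of all genes in SAM from 0.02 to 0.19 and left 4 members called. Over all genes, 3404 differed among groups, against 596 on raw counts, 5292 with DESeq2 and 5279 without SAM fibers 2. In SAM 877 genes were higher and 529 lower, against 718 and 799 with RPKM and a pseudocount of 0.1. Depth limits members under the floor of 0.249 to 0.897 CPM.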
